A study of Mus musculus with 12 samples.

Results

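In mouse CD8 T cells grown with the DOT1L inhibitor EPZ-5676, 464 of the 12578 broad domains of dimethylated lysine 79 of histone H3 (H3K79me2) found in vehicle-treated cells carried the mark in several separate pieces. These split domains are the DMSO peaks that at least 2 EPZ peaks overlapped by 1 base or more and of which EPZ peaks covered under 50% of the bases. They were chosen on the DMSO and EPZ peak lists, so their number of pieces, coverage, widths and enrichments are a description of that choice. The split domains were 3.69% of all DMSO peaks. They held 1191 EPZ peaks, which were 26.8% of the EPZ list, and 11.6 Mb, which were 17.0% of all bases in DMSO peaks. The SGC-0946 list, the positions and strands of genes and the promoter sequences were not used in the choice.

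The CD8 T cells came from male mice of the strain CreERT2;DOT1L-flox;OT-I. The genotype is labelled wt;wt;het, so that both DOT1L-flox and CreERT2 are labelled wild type and OT-I, a transgenic T cell receptor, heterozygous, and all groups share it. The age of the mice is not given in the sources used here. All cells were activated with antibodies to CD3 and CD28 and expanded for 8 days. EPZ cells received EPZ-5676 and SGC cells SGC-0946, each at a labelled 10 mM, and DMSO cells received 0.1% of the solvent. The unit of these doses is doubtful, since such compounds are commonly given to cells at micromolar doses. Each of the 3 treatments had 2 biological replicates, each with an immunoprecipitated and an input library, 12 libraries in all. Yeast chromatin with HA-tagged H3 was added as an external reference. The deposited data are 1 list of broad peaks per treatment, with 4443 EPZ, 55 SGC and 12578 DMSO peaks. With 1 list per treatment, the spread between replicates is unknown, so the text holds no p-value. Read depth is unknown as well, so a gap is a stretch where no EPZ peak was called. The 95% intervals of shares are exact (Clopper-Pearson) and cover the counting of peaks or genes only.

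DOT1L is the enzyme that methylates lysine 79 in the globular core of histone H3. It travels with the transcription elongation machinery, and H3K79me2 typically lies over the beginning of transcribed genes, from just past the start into the gene body. EPZ-5676, also called pinometostat, and SGC-0946 both compete with S-adenosylmethionine, the methyl donor of DOT1L. In the DMSO list, 18 of 19 T cell identity genes held a DMSO peak, against 0 of 14 myeloid, 0 of 15 non-hematopoietic and 1 of 12 B cell markers. DMSO peaks also lay in 4 of 12 NK cell markers and 3 of 12 markers of CD4 helper and regulatory T cells. No marker of these other cells lay in a split domain.

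The promoter sequences of 5 genes show how split domains were placed against gene starts. Each sequence is the 250 bases before a start, 5′ to 3′ on the strand of the gene, from RefSeq on GRCm38 (mm10), with every CG dinucleotide in capitals. Fyn, a Src family kinase next to the T cell receptor, had the most pieces. Foxo1, a transcription factor of naive and memory T cells, and Cd247, the zeta chain of the receptor complex, had wide domains. Rbm39, a splicing factor, has a listed start on each side of a piece border, and Dot1l encodes the inhibited enzyme.
Fyn (chr10:39369549-39369798, plus strand): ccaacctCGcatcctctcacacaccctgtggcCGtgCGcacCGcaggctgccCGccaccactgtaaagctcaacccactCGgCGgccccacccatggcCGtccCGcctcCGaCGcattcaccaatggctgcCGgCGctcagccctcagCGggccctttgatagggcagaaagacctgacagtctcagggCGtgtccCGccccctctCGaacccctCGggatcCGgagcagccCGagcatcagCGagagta
Foxo1 (chr3:52268087-52268336, plus strand): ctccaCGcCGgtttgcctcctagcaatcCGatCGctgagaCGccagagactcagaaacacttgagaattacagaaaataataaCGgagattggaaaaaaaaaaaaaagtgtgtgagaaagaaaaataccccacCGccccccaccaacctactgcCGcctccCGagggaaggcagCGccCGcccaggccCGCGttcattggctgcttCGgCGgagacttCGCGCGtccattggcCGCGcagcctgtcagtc
Cd247 (chr1:165788431-165788680, plus strand): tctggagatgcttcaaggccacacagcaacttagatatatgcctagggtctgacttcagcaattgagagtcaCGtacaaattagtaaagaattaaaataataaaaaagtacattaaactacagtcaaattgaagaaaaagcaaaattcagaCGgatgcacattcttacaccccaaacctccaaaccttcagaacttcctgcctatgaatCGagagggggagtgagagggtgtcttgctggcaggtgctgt
Rbm39, inner start (chr2:156179581-156179830, minus strand): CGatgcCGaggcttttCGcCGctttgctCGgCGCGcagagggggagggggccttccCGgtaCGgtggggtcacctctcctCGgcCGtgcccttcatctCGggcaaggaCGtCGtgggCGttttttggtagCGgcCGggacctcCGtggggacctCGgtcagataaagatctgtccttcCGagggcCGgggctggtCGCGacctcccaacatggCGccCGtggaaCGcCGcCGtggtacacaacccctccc
Rbm39, outer start (chr2:156180239-156180488, minus strand): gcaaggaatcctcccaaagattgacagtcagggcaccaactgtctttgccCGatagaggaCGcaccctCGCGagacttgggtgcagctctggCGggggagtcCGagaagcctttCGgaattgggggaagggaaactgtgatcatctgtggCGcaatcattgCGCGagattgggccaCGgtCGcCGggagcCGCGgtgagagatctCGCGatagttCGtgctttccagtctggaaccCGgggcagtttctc
Dot1l (chr10:80754953-80755202, plus strand): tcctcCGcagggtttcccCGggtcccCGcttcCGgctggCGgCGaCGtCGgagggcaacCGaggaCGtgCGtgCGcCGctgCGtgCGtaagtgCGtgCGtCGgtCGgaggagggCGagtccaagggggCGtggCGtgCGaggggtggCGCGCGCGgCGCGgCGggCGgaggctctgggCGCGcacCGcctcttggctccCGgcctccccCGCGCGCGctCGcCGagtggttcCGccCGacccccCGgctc
The Fyn and Foxo1 starts lay in the DMSO domain but 522 and 414 bases before the first EPZ piece. The inner Rbm39 start and the Cd247 start lay in an EPZ piece, the outer Rbm39 start was 65 bases before it, and the Dot1l start was 422 bases before the domain. CG occurred 21 times before the Fyn start, 20 before Foxo1, 3 before Cd247, 28 and 19 before the inner and outer Rbm39 starts, and 44 before Dot1l. CG is its own reverse complement, so 1 strand was read. Of the 21263 starts of protein-coding genes in the table, 93.4% had at least 1 CG in such a window, with a median of 10. The first listed starts of genes in split domains had a median of 20 CG (n = 435), against 17 for all DMSO-marked genes (n = 6149). Counts of CG describe these windows and say nothing about what binds them.

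Most split domains broke into a pair of pieces, and a few long genes held a chain of them. The domain had 2 EPZ pieces in 320 cases, 3 in 82, 4 in 34, 5 in 12, 6 in 11 and 7 in 2. Stk24, a STE20 family kinase, had 9 pieces in 79.252 kb, and Pitpnc1, a phosphatidylinositol transfer protein, had 8 in 103.794 kb. Tnfaip8, a regulator of cell death, and Gramd3 had 7 each. Spata13, a guanine nucleotide exchange factor, Ubac2, Mta3, Rbm39 and the long noncoding gene B130006D01Rik were among those with 6.

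Fyn was the extreme. Its 12 EPZ pieces covered 29.1% of a DMSO domain of 143.659 kb (chromosome 10, 39369011 to 39512669), the widest in the set, with a DMSO fold enrichment of 6.06. Fold enrichment is the authors' ratio over background for a peak and is compared only within its own list. The first Fyn piece was 20607 bases wide with an EPZ fold enrichment of 5.53. The second began 34475 bases from the gene start, was 2421 bases wide and had a fold enrichment of 3.17. The remaining 10 Fyn pieces had fold enrichments between 2.88 and 3.87. Fyn therefore had a wide strong piece at its 5′ end and a long train of weak ones.

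Cd247 and Foxo1 had the same layout. The 5 pieces of Cd247 in a domain of 68.53 kb had EPZ fold enrichments of 6.03, 3.26, 3.33, 3.08 and 3.18, in order along the gene, and the first was 12674 bases wide. The 6 pieces of Foxo1 in 82.773 kb had 5.43, 3.00, 2.98, 3.17, 2.97 and 3.46, and the first was 24520 bases wide. Dot1l itself was split in 2, with a piece of 992 bases at an EPZ fold enrichment of 4.45 followed by 1958 bases at 2.79. These Dot1l pieces covered 28.4% of a 10.398 kb domain whose DMSO fold enrichment was 5.09. In Dot1l, too, the stronger piece was the 5′ one, although the narrower.

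**Figure D1:**
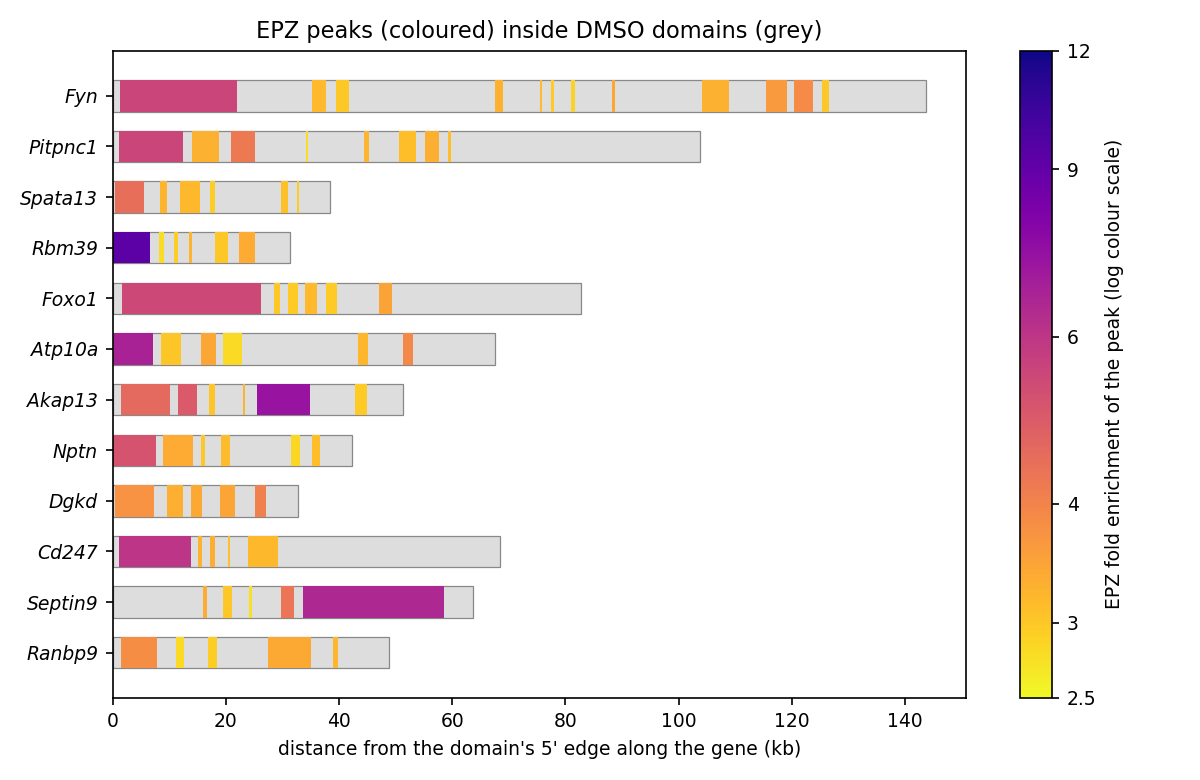
Map of 12 split domains with a known gene direction: the grey bar is the DMSO domain, drawn from its 5′ edge along the gene in kb, and coloured blocks are EPZ peaks by their EPZ fold enrichment on a log colour scale. The 5′ block is the most enriched in Fyn (5.53) and Rbm39 (9.23), whereas in Septin9 it is the last (6.48).

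Split domains were wide and, in DMSO, mostly of high enrichment, though below retained domains in the median. Their median width was 20.9 kb (interquartile range 13.6 to 32.0 kb), against 7148 bases for the 1851 single-core domains, which had 1 EPZ peak and under 50% coverage. The 1067 retained domains, with 50% or more of their bases in EPZ peaks, had a median of 9701 bases, and the 9196 DMSO peaks without an EPZ peak 1546 bases. The median DMSO fold enrichment was 5.57 in split domains, 5.24 in single-core, 7.93 in retained domains and 3.08 in peaks without an EPZ peak. Any EPZ peak lay in 26.9% of DMSO peaks and at least 2 lay in 5.22%, since 193 retained domains also held several.

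By deciles of DMSO fold enrichment, the split domains were not at the very top. They made up 20.6% of decile 9 (259 domains) and 6.68% of decile 10, the highest (84 domains), where 831 domains were retained. Decile 8 held 105 and deciles 1 to 5 none. The top 3 deciles together held 448 of the 464, or 96.6%. By width, 351 of the 464 were in the widest decile, at 27.9% of it. Wide domains have more room for several peaks, and the rule used both lists, so these positions describe the choice. Among domains between 13.6 and 32.0 kb, the median DMSO fold enrichment was 5.55 in 232 split, 5.03 in 321 single-core, 8.52 in 265 retained domains and 3.72 in 139 without an EPZ peak. At like width, the split and single-core domains were thus near each other in enrichment, and the retained ones were higher.

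**Figure D2:**
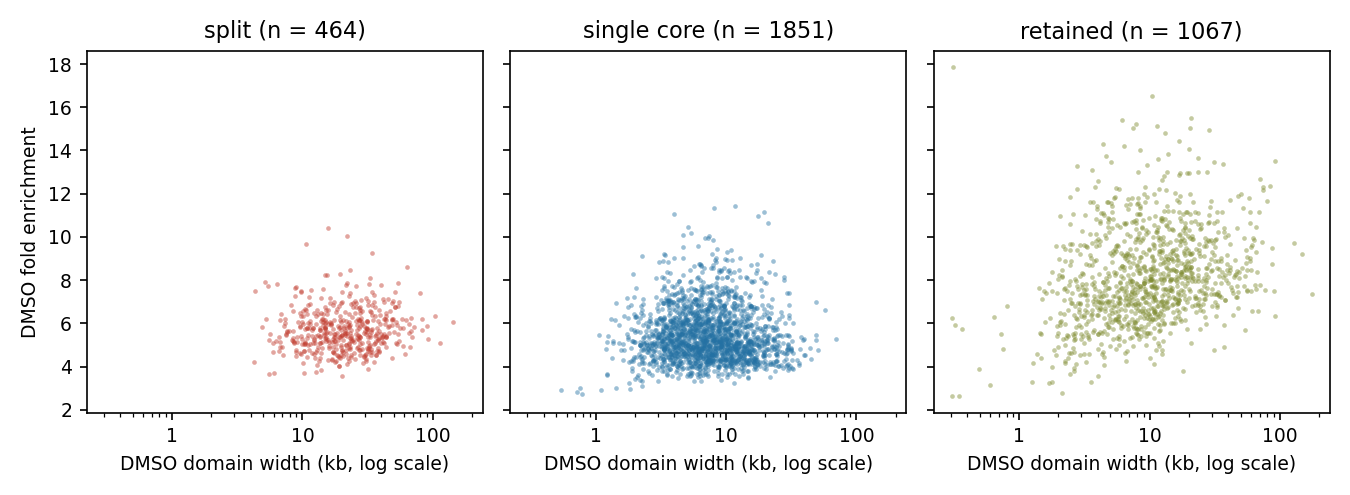
DMSO domain width (kb, log scale) against DMSO fold enrichment for the 3 classes of domain that held an EPZ peak, with 1 point per domain. Split domains lie to the right, at a median of 20.9 kb, and their enrichment reaches 10.4, where retained domains reach 17.9.

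The split domains of highest DMSO enrichment and of greatest width lay in genes of varied function. Rab8a, a GTPase of vesicle transport, had the highest DMSO fold enrichment at 10.4. Zdhhc18, a palmitoyltransferase, had 10.0, the nuclear protein Midn 9.67 and the interleukin-21 receptor gene Il21r 9.25. Septin9, a cytoskeletal GTPase, had 8.59, the nuclear lamina protein gene Tmpo 8.47, the clathrin light chain gene Clta 8.28, the phosphatase gene Dusp5 8.25, the splicing factor gene U2af2 8.24 and the diacylglycerol kinase gene Dgkd 8.10. Among the widest were Cmip at 92.279 kb, Lrrc8c, a subunit of volume-regulated anion channels, at 90.883 kb, and Itpkb, an inositol phosphate kinase, at 81.903 kb. Prkch, a protein kinase C, kept 7.27% of its 71.231 kb in EPZ peaks. The noncoding gene Pvt1, next to Myc in the genome, kept 15.3% of 113.388 kb in 3 pieces.

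EPZ pieces covered a median of 27.5% of a split domain (interquartile range 18.4 to 37.3%). Just inside the limit lay Gnb1 at 49.96%, Pdcd6ip at 49.94% and Dgkd at 49.89%. Just outside lay Klf13 with 5 EPZ peaks and 50.08%, Zfp292 with 4 and 50.09%, and Dgkz with 3 and 50.14%. The domains on either side of the limit thus differed by less than 1 percentage point of coverage.

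The gaps between pieces were short in most cases. The 727 gaps had a median of 2180 bases (interquartile range 1518.5 to 4135), and 461 of them, 63.4%, were under 3 kb. No 2 neighbouring peaks of the EPZ list were closer than 1214 bases, and none of the DMSO list closer than 1123. The gap length thus has a floor in the deposited lists. At the other end, 47 gaps in 45 domains were over 10 kb. The widest gap, 46557 bases, lay in Ptk2b, a focal adhesion family kinase. It was followed by Pvt1 with 31769, the ubiquitin ligase scaffold gene Cul3 with 29978, the spindle protein gene Numa1 with 29288 and Vgll4, a cofactor of TEAD transcription factors, with 26668.

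The pieces themselves ranked low in the EPZ list. Their median width was 1539 bases and their median EPZ fold enrichment 3.24, at the 32.7th percentile of all EPZ peaks. The core of a single-core domain had a median width of 1563 bases and a fold enrichment of 3.49, at the 45.3rd percentile, and EPZ peaks of retained domains 4748 bases and 4.92, at the 74.0th. Within a split domain the pieces were unequal, with a median fold enrichment of 4.07 for the strongest and 2.99 for the weakest. The weakest had a median −log10 q of 1.64, where the lowest value in the whole EPZ list was 1.08. Only 235 of the 1191 pieces, 19.7%, had a −log10 q of at least 5. When EPZ peaks were held to that value, 24 domains remained split, and when EPZ peaks under 3 kb apart were joined, 184 did. How many domains count as split thus depended on weak pieces and short gaps.

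The strongest piece was in most domains the one nearest the 5′ end of the gene. This could be asked of 298 split domains that overlapped 1 protein-coding gene whose strand is in the promoter table. Of the others, 83 overlapped several protein-coding genes, 7 none, and the rest a gene without a listed strand. The first piece had the highest EPZ fold enrichment in 263 of the 298, or 88.3% (95% interval 84.0 to 91.7%). The last piece had it in 29. The share was 88.8% on the plus strand (143 of 161) and 87.6% on the minus strand (120 of 137), close to each other on both strands. It was 90.2% with 2 pieces (184 of 204), 83.3% with 3 (45 of 54) and 85.0% with 4 or more (34 of 40). The first piece was also the widest in 235 domains, or 78.9% (73.8 to 83.4%). The order along the gene was not used by the rule, but this question was chosen after these data had been seen.

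First pieces had a median EPZ fold enrichment of 3.97 (interquartile range 3.41 to 5.09), later pieces 3.07 (2.93 to 3.28). Their median widths were 3373 bases for first and 1164.5 bases for later pieces. The first piece began a median of 749 bases from the gene start, against 648 for the core of single-core domains and 320.5 for the first EPZ peak of retained ones. Second pieces began at a median of 9037.5 bases and the third ones at 18839.5 bases. The range behind these medians was wide, as 3 genes show. Tmpo had a first piece of 6695 bases at 22.8, by far the most enriched piece of any split domain, and 3 later ones of at most 3.14. The first piece of Zdhhc18 had 15.4 and its second 3.13. Nfatc2, an NFAT transcription factor downstream of the T cell receptor, had 9.33, 3.03, 3.19 and 3.21 along the gene.

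**Figure D3:**
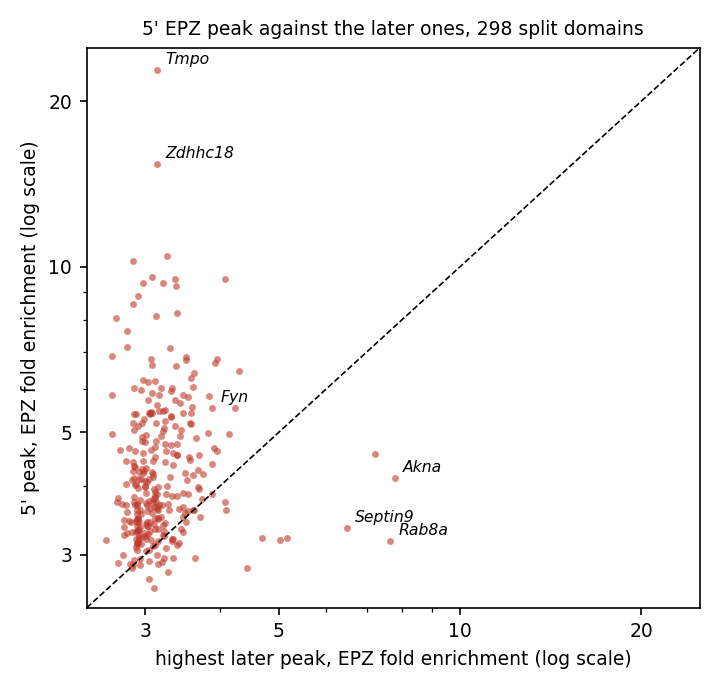
EPZ fold enrichment of the first (5′) piece against that of the most enriched later piece of the same domain, both on log scales, with 1 point for each of 298 split domains and a dashed line of equal values. Later pieces gather near 3, and 263 points lie above the line, with Tmpo at 22.8 the highest.

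In 35 domains a later piece was the most enriched, and in 21 of these the first was within 10% of it. The widest departures were Rab8a with 3.17 in the first piece and 7.67 in the second, Septin9 with 3.35 and 6.48, and Akna, which encodes an AT-hook protein, with 4.12 and 7.78. Add3 had 3.22 and 5.17, Akap13 had 4.57 and 7.22, and Macf1 had 3.19 and 5.03, in each case the first piece and then the strongest later one. These genes were named after their values were seen, except Rab8a and Septin9. In Rab8a the first piece began at -2280 bases, before the gene start, and the strongest at 151 bases, just past it. The strongest piece of Septin9, piece 5 of 5, was 25036 bases wide and began 126.757 kb from the 5′ end of the annotated gene. Septin9, Rab8a, Akna, Ccm2 and Tnpo1, 5 of the 35 (14.3%), had a listed start of the gene inside the strongest later piece or within 2 kb before it. Among all first pieces the same held for 268 of 298, or 89.9%.

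Each domain was divided from 5′ to 3′ into 10 bins of equal length. In split and single-core domains EPZ coverage was highest in bin 2 and declined to under 1% at the 3′ edge. In split domains the mean coverage was 60.7% in bin 1, 67.4% in bin 2, 51.3% in bin 3, 25.3% in bin 5, 13.0% in bin 7 and 0.373% in bin 10. In single-core domains the same bins had 35.6, 64.7, 59.9, 27.6, 5.11 and 0.426%. In retained domains coverage was between 89.6 and 97.9% in bins 2 to 6, highest in bin 4, and 5.54% in bin 10. Among domains of 13.6 to 32.0 kb, bin 5 had 27.6% in 157 split and 14.0% in 208 single-core domains, and bin 7 had 10.8% in split and 1.10% in single-core domains. Split domains therefore kept EPZ peaks farther into the domain than single-core domains of like width, and the rule, which asks for several peaks, favours that.

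**Figure D4:**
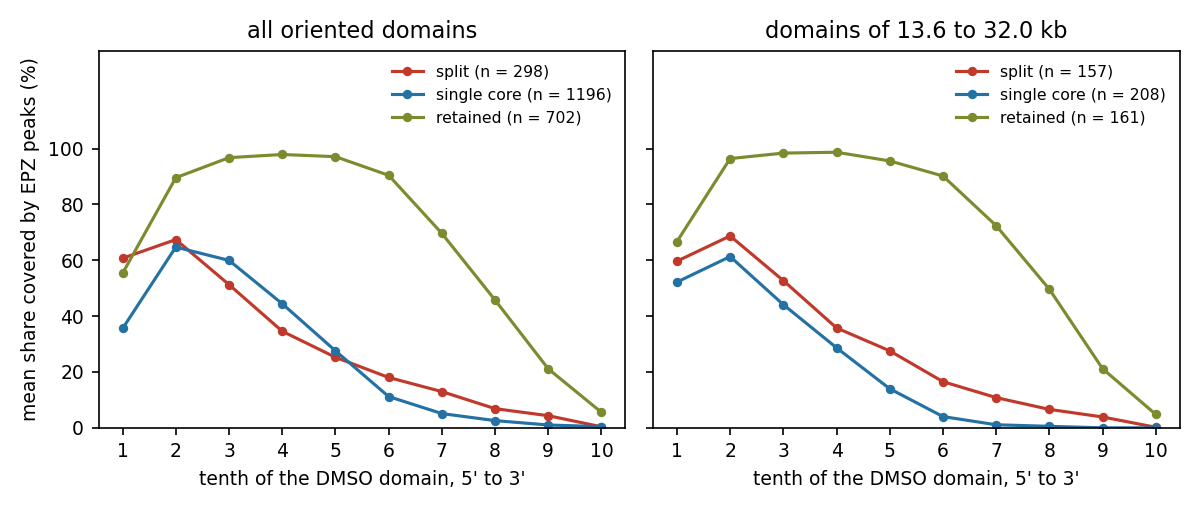
Mean share of each of 10 equal bins of a DMSO domain covered by EPZ peaks, from 5′ to 3′ along the gene, for all domains with a known direction (left) and those of 13.6 to 32.0 kb (right). Split and single-core domains both peak in bin 2 (67.4% and 64.7% on the left), and split domains keep the longer tail, while retained domains stay at 89.6% or more in bins 2 to 6.

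Measured in bases from the gene start, split domains were in an EPZ peak more often than single-core domains at distances between 2 and 20 kb, without matching for width. At 0.5 kb the share was 54.2% in split and 56.6% in single-core domains. At 1 kb, 78.0% of split domains that extended there were in an EPZ peak (167 of 214), against 72.9% of single-core domains. At 5 kb the shares were 60.5% in split and 18.4% in single-core domains. At 10 kb they were 28.4% in split (64 of 225, interval 22.6 to 34.8%), 5.54% in single-core (21 of 379, 3.46 to 8.35%) and 68.0% in retained domains. At 20 kb they were 15.7, 3.48 and 62.3% in the same order. At 30 kb they were 10.5% in split and 5.56% in single-core domains, with overlapping intervals, and at 40 kb 13.3% (6 of 45) in split and 15.8% (3 of 19) in single-core domains. Right at the start only 14 of 75 split domains, 18.7%, were in an EPZ peak. The 5′ edge of a split domain lay a median of 325 bases past the gene start, and in 75.5% it lay within 2 kb of it. Its 3′ edge lay at 24992 bases, or 47.3% of the gene length, and the last EPZ piece ended at 12382 bases, 55.3% into the domain.

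Starts were set against first pieces, later pieces and gaps in the same 298 domains. Each of these overlaps 1 protein-coding gene and its pieces are ordered from the 5′ end of that gene, so later pieces could meet only further starts of the same gene or one just outside it, and the contrast with first pieces follows in part from that choice. A listed start of a protein-coding gene lay in or within 500 bases of 161 of 298 first pieces (54.0%, interval 48.2 to 59.8%). For later pieces this was 8 of 466 (1.72%, 0.744 to 3.35%), and for the gaps between pieces 11 of 466 (2.36%, 1.18 to 4.18%). The intervals of later pieces and gaps overlap. Per 100 kb, starts that lay inside numbered 3.05 in first pieces, 1.19 in later pieces and 0.555 in gaps. Over all listed starts that lay in a domain, 73 of 332 in split domains were inside an EPZ piece (22.0%, 17.6 to 26.8%). In single-core domains it was 255 of 1141 (22.3%) and in retained domains 421 of 813 (51.8%). EPZ peaks held 28.0% of the bases of split, 23.3% of single-core and 68.6% of retained domains. The share of starts was thus below the share of bases in split and retained domains. In single-core domains the interval of the share of starts included the share of bases. The share of starts in split domains was 64.2% when 500 bases on each side were allowed, as the 414 and 522 bases of Foxo1 and Fyn illustrate.

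The base composition of promoters was compared between starts inside and outside the pieces. The 73 starts inside an EPZ piece of a split domain had a median GC content of 58.8% and a CpG observed over expected ratio of 0.634 in the 250 bases before them. The 259 starts in split domains but outside the pieces had 63.2% and 0.803. The interquartile ranges of the ratio overlapped, at 0.317 to 0.867 inside and 0.590 to 0.974 outside. Starts in single-core domains had 0.811 and in retained domains 0.784. Of the promoters printed above, Cd247 with 3 CG lay on the low side, and the inner Rbm39 start, with 28, did not, although both were inside a piece.

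Split domains lay over long genes. The gene that overlapped a split domain most had a median length of 60910 bases, against 23457 for single-core, 22324 for retained domains and 53894 for DMSO peaks without an EPZ peak. Split domains covered a median of 36.4% of that gene, single-core domains 31.5% and retained domains 53.4%. At widths of 13.6 to 32.0 kb the gene was 58108 bases long in split domains, 53802.5 in single-core, 32203 in retained ones and 101797 in those without an EPZ peak. At like width, split and single-core genes were thus close in length, and genes without an EPZ peak in the domain were longer than both. In all, 538 of the 7563 protein-coding genes with a DMSO peak lay in a split domain, which is 7.11% (6.54 to 7.72%). The 7563 marked genes were 34.5% of all protein-coding genes. The share in a split domain was 3.04% in decile 1 of gene length (the shortest marked genes), 15.5% in decile 9 and 13.6% in decile 10. A total of 12 genes held more than 1 split domain, among them the transcription factor gene Foxp1, the histone methyltransferase gene Nsd1 and Dock10, a guanine nucleotide exchange factor.

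Of the 83 split domains over several protein-coding genes, 63 had pieces in different genes, which is 13.6% of all split domains (10.6 to 17.0%). When each piece was assigned to the gene it overlapped most, 44 remained. One such domain spanned Cbx5, a heterochromatin protein gene, and the ribonucleoprotein gene Hnrnpa1, which point away from each other. Its piece of EPZ fold enrichment 8.64 began at -3787 bases, upstream of the Cbx5 start, and a second of 6.86 began at 705 bases, downstream of it. Both were strong, unlike the usual pair of a strong and a weak piece within 1 gene, and the remaining pieces of Cbx5 had 2.82 and 2.81. The domain of Jmjd6 also overlapped Mettl23, Mfsd11 and Srsf2 and had pieces of 11.6, 3.44 and 3.38.

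The genes in split domains included parts of the T cell signalling pathway, beside many of general function. The lists were written with earlier results of these data known and carry no test; each share is set beside the 7.11% of all marked genes. Coverage is that of the split domain, and of the 68 list genes in split domains 3 also had a retained domain elsewhere in the gene. Of 24 marked genes of proximal T cell receptor signalling, 6 lay in a split domain, or 25% (9.77 to 46.7%). Txk, a Tec kinase, had 3 EPZ pieces and 48.6% coverage at a DMSO fold enrichment of 6.77. Fyn was described above. The adaptor gene Grb2 had 3 pieces over 52.982 kb and 33.5%, and Cblb, a ubiquitin ligase that restrains the receptor, 2 pieces over 66.783 kb and 17.4%. Themis, a regulator of thymocyte selection, had a split domain of 31.977 kb with 6.25% coverage, and another domain of 39.372 kb that was retained. The marked genes of this list had a median length of 56.3 kb, against 23.4 kb over all marked genes.

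T cell identity genes were split in 4 of 18 cases, or 22.2% (6.41 to 47.6%). The marked genes of this list were short, with a median length of 17.8 kb. Cd8b1, the CD8 beta chain, had 2 pieces at 7.53 and 2.93 and 31.7% coverage of 23.62 kb. Gata3, a T cell transcription factor, had 2 pieces covering 49.7%. The co-stimulatory receptor gene Cd27 lay in the domain named for its neighbour Tapbpl and held 1 of its 2 pieces. Cd247, described above, was the widest of the 4. Of this list 9 genes lay in a retained domain, so a split was not the usual state of T cell identity genes.

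Downstream of the receptor, 4 of 28 genes of NFAT, calcium and NF-kB signalling were split (14.3%, 4.03 to 32.7%). They were Nfatc1, Nfatc2 and the calcineurin subunits Ppp3r1 and Ppp3ca. Calcineurin dephosphorylates NFAT factors. The other calcineurin catalytic genes were not split, Ppp3cb lying in a single-core and Ppp3cc in a retained domain. Nfatc1 kept 35.8% in EPZ peaks, Nfatc2 29.4%, Ppp3r1 15.1% and Ppp3ca 8.67%. PI3K, AKT and mTOR signalling had 5 of 20 (25%, 8.66 to 49.1%), with a median length of 59.6 kb. They included Inpp5d, a phosphatase of the lipid product of PI3K, the kinases Akt1 and Akt2, and Rictor, a subunit of mTOR complex 2. Akt1 had 2 pieces of 4.64 and 2.73, and Inpp5d 2 of 3.95 and 3.10. Cytokine signalling had 3 of 30, namely Il21r with 47.8% coverage and the signal transducers Stat4 with 33.9% and Stat5b with 9.47%.

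Of the transcription factors of naive and memory T cells, 5 of 25 were split (20%, 6.83 to 40.7%). Beside Foxo1 and Foxp1 these were Cbfb, the partner of the RUNX factors, with 25.4% coverage, the Ikaros family gene Ikzf3 with 21.6%, and the repressor gene Zeb1 with 9.40%. Foxp1 had 2 split domains of 22.749 and 22.856 kb, and their first pieces began 493791 and 427703 bases from the 5′ end of the annotated gene. Homing and adhesion genes had 3 of 22, the integrin genes Itgb7 and Itgb1 and the sialyltransferase gene St3gal6. Itgb7 held 1 of the 2 pieces of its domain. None of the 14 marked effector and cytotoxic genes lay in a split domain (interval up to 23.2%), and none of the 11 marked inhibitory and costimulatory receptor genes (up to 28.5%). The effector genes were short, with a median of 11.99 kb, and 8 of the 14 lay in a retained domain.

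Chromatin genes were among the lists with the highest share. Of 39 marked genes of DOT1L, its partners and other chromatin modifiers, 9 were split, or 23.1% (11.1 to 39.3%), at a median length of 71.2 kb. The products of Kmt2a, Kmt2b and Setd1b methylate lysine 4 of histone H3, and that of Nsd1 lysine 36. Ccnt1, a cyclin of the elongation factor P-TEFb, kept 43.6% and Ell, an elongation factor, 24.3%. The demethylase gene Kdm6a and Dot1l completed the list. Kmt2e, with 46.9% coverage of 54.321 kb, had 4 pieces, of which 1 lay in the gene itself. Kmt2b held 1 of the 2 pieces of its domain. Chromatin remodellers and coregulators had 7 of 36 (19.4%, 8.19 to 36.0%), with Smarcd2 and Smarca4 of the SWI/SNF complex at 27.2 and 33.4% coverage the corepressor gene Ncor1 at 37.2% and Ep400, a subunit of the TIP60 complex, at 25.2%. Chd8 counted among them with 1.032 kb at the edge of the neighbouring Supt16 domain and held none of the EPZ pieces of that domain. Another Chd8 domain, of 21.1 kb, was single-core.

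**Figure D5:**
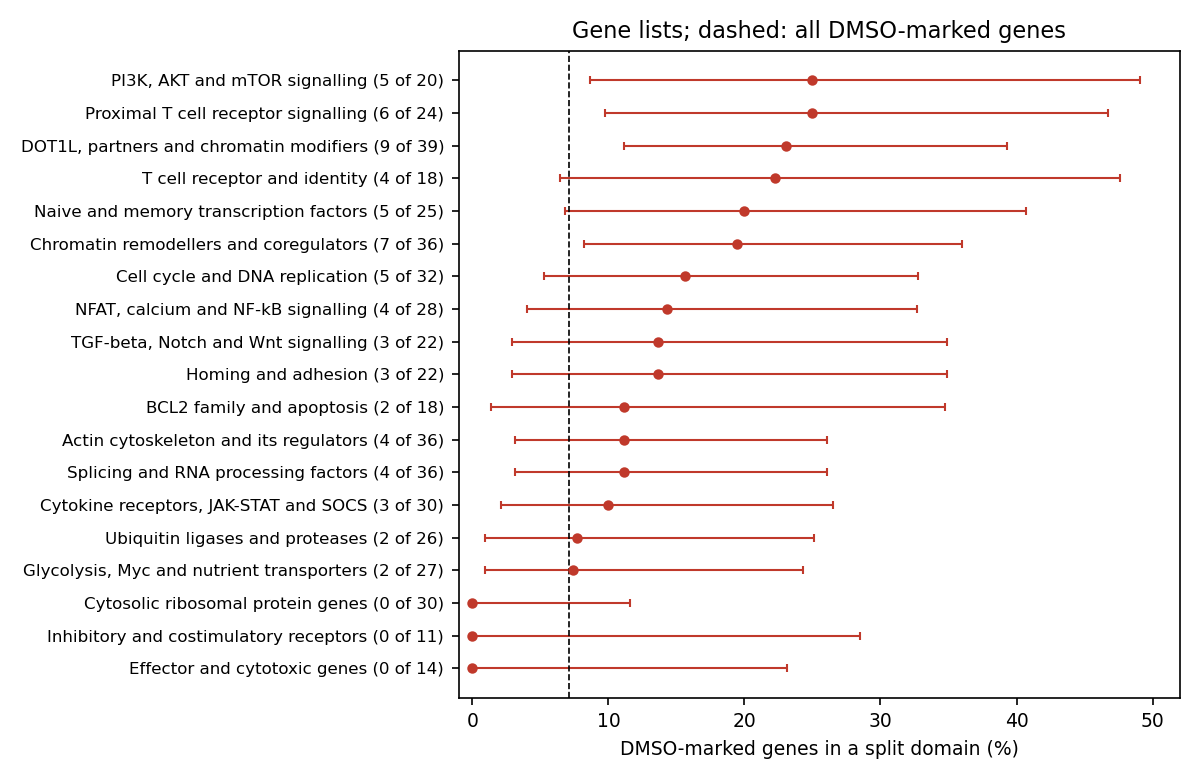
Share of DMSO-marked genes that lay in a split domain, in percent, for the 19 lists with at least 5 marked genes, with exact 95% intervals, and the number of split and of marked genes in brackets. The dashed line is the 7.11% of all marked genes, and the upper lists, at 25%, stand right of it, while 3 of the lists drawn stand at 0.

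Lists of general function followed. None of the 30 cytosolic ribosomal protein genes was split (interval up to 11.6%), and 23 of them lay in a retained domain. Their median length was 3.74 kb. Cell cycle genes had 5 of 32 (15.6%, 5.28 to 32.8%), with Cdk6 in 5 pieces over 66.001 kb and Ccne1, E2f3 and Ccnd3 in 2 each. Cdc20 held 1 of the 2 pieces of the domain named for its neighbour Elovl1. Splicing factors had 4 of 36: Hnrnpa1, Srsf2, Celf1 with 4 pieces over 40.776 kb, and Rbm39 with 9.23 in its first piece and at most 3.37 later. Hnrnpa1 and Srsf2 each held 1 piece of a domain named for a neighbour, Cbx5 and Jmjd6. Actin cytoskeleton genes had 4 of 36 (Evl, Actn4, Dock10 and Flna), glycolysis and Myc genes 2 of 27 (Slc16a1 and Max), and ubiquitin genes 2 of 26 (Cul3 and Usp34). The median length of marked genes was 14.3 kb in the cell cycle list, 29.5 kb in the actin list and 92.8 kb in the ubiquitin list. The BCL2 family had Bax, with 1 of the 2 pieces of its domain in the gene, and Bcl2l1 of 18. TGF-beta, Notch and Wnt signalling had Tgfbr2, Ski and Axin1 of 22. The intervals of these lists include 7.11%. So do those of the T cell identity, NFAT, cytokine, naive and memory, homing, effector, and inhibitory and costimulatory receptor lists. The intervals of proximal receptor signalling, PI3K, chromatin modifiers and chromatin remodellers lie above it. The remodeller count includes Chd8, which held no piece of its split domain. By the gene of most overlap that count was 6 of 36, and no interval was set on this share.

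Over all genes, the share in a split domain was higher for longer genes and for those with an EPZ peak. Of the 3789 marked genes in a DMSO domain with an EPZ peak, 14.2% lay in a split domain. By quintiles of gene length, this was 6.61% in the shortest, then 6.60, 11.1 and 16.4%, and 30.3% in the longest. On the same basis, the PI3K list had 33.3% (5 of 15), chromatin modifiers 36.0% (9 of 25) and proximal receptor signalling 26.1% (6 of 23). T cell identity genes had 23.5% (4 of 17) and ubiquitin genes 9.52% (2 of 21). These counts are small and no intervals were set on these shares. The lists of proximal receptor signalling, PI3K and chromatin modifiers had median lengths of 56.3, 59.6 and 71.2 kb, above the 23.4 kb of all marked genes. The ribosomal and effector lists, with 0 split genes, had 3.74 and 11.99 kb. Other lists did not follow this order. They include T cell identity at 17.8 kb, ubiquitin genes with the longest median, and inhibitory and costimulatory receptors (without Cd27) at 30.6 kb with 0 split genes. The part of gene length in the list shares was not tested.

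The second inhibitor left no peak in any split domain. Of the 464 split domains, 0 held an SGC peak, with an exact interval of up to 0.792%. A limit of 3 counts would be 0.647%. Over all DMSO peaks 0.334% held an SGC peak, and among those with an EPZ peak 1.21%. Single-core domains had 3 of 1851 (0.162%, 0.0334 to 0.473%) and retained domains 38 of 1067 (3.56%, 2.53 to 4.86%). The interval of split domains includes the single-core share and the share over all DMSO peaks, so split domains cannot be told apart from either. In the highest decile of DMSO fold enrichment the counts were 0 of 84 split, 3 of 337 single-core and 35 of 831 retained domains. There the interval of split domains reached 4.30%, and the retained share, 4.21% (2.95 to 5.81%), lay within it. With retained domains held to the enrichment that split domains reach, it was 16 of 671, or 2.38% (1.37 to 3.84%), which lies within it too. In the widest decile the counts were 0 of 351 split, 2 of 359 single-core and 23 of 385 retained domains, where the interval of split domains reached 1.05% and the retained share 5.97% (3.82 to 8.83%). The intervals of split and retained domains were thus apart over all domains and among the widest, where the enrichment of the classes differed. They overlapped in the highest decile of enrichment. They also overlapped in the 9th decile, with 0 of 259 split (up to 1.41%) and 3 of 178 retained domains (0.349 to 4.85%). At widths within the interquartile range of split domains they overlapped narrowly. There the counts were 0 of 232 split (up to 1.58%) and 9 of 265 retained domains (1.56 to 6.35%). These intervals leave out the spread between replicates. The SGC list has 55 peaks in all, so most domains of every class were without one.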

How the data were processed

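H3K79me2 ChIP-seq was made from 6 immunoprecipitated and 6 input libraries. Per the submitters' processing notes, the tools were MACS2 2.2.7.1, BWA 0.7.17-r1188 and Picard, with the mouse build GRCm38 (mm10) and the yeast build sacCer3. The sources used here do not give the calling thresholds, the use of inputs and yeast reads, or how replicates were joined. Each list was treated as 1 pool per treatment. Fold enrichment is the ratio over background deposited by the authors, and the deposited −log10 q values are likewise the authors', per the broad-peak layout.

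From the 3 lists, DMSO peaks were classed by EPZ overlap (1 base) and coverage with Python 3.11.15, numpy 2.4.6, pandas 2.3.3 and scipy 1.17.1. The classing recovered the classes set in simulated peaks. Gene positions came from RefSeq genes on GRCm38 (21900 protein-coding). Strands came from the RefSeq promoter table, which held 79.9% of these genes, and 435 of the 538 genes in split domains had a promoter there. A gene was marked when a peak overlapped it by 1 base. Exons and introns were not analysed here. The rule for named domains took the 10 with the most pieces, the 10 widest, the 10 of highest DMSO fold enrichment, 5 by gap, 3 on each side of the limit, Dot1l, and up to 4 per gene list. Its 10 by SGC bases are empty, since no split domain held an SGC peak. List members beyond 4, and the domains in comparisons along the gene that the rule does not give, were named after their values were seen. Some members of the lists are counted but not reported here by name. The members and the 24 gene lists were chosen with earlier results of these data known.

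Libraries could not be compared one by one, depth is unknown, and intervals therefore cover counting only.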

Additional observations from a re-analysis of the deposited data

How the results depend on the processing

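Of 63 alternatives over 10 results, 47 were labelled as keeping the value, 16 as moving it and 0 as reversing it. The 0 carries no information, since these counts, shares and medians have no sign to reverse. Keeping allowed sizeable changes in counts. Coverage limits of 40 and 60% gave 378 and 544 split domains in place of 464, and both were labelled as kept. So were 445 genes in place of 538 under the gene of most overlap. Of the 47, 17 say little about stability: no EPZ gap is under 1 kb, so joining such peaks could change nothing (9), or they concern the SGC share (9, 1 of them in both). Holding EPZ peaks to a −log10 q of at least 5 left 24 split domains in place of 464. It gave a median coverage of 33.6%, a median gap of 3240 bases and 55.6% of starts inside a piece. The strongest piece then lay at a gene start in 50% of domains (29.1 to 70.9%) and the pieces in different genes in 25% (9.77 to 46.7%). The first piece was then the strongest in 72.7%, with a wide interval of 39.0 to 94.0%. Joining EPZ peaks under 3 kb apart left 184 domains, with 31.0% of starts in a piece and 9.24% with pieces in different genes. A window of 500 bases put 64.2% of starts in or at a piece, in place of 22.0%, and the strongest piece at a start in 43.5% of domains, in place of 12.1%. Coverage limits of 40 and 60% moved the median coverage to 24.99 and 31.0%, in place of 27.5%. Assigning pieces to the gene of most overlap gave 9.48% in place of 13.6% in different genes. Ranking pieces by width in place of enrichment put the first piece on top in 78.9%, in place of 88.3%. The share of split domains with an SGC peak was 0 under its alternatives, most of which could give no other value from 0. The cause of these moves was not tested beyond what each alternative does. The alternatives for the first piece were chosen after seeing the data. No paired analysis was possible because each treatment has 1 list. For the same reason leaving out a replicate was not run.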

Other observations

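Long noncoding genes made up most of the split domains outside protein-coding genes. Of the 7 such domains, 6 lay in a noncoding gene and 1, on chromosome 19 from 11355271 to 11364254, in no annotated gene. B130006D01Rik had 6 EPZ pieces that covered 44.0% of 34388 bases. Lncpint kept 33.4% of 43645 bases in 2 pieces, and Dleu2, which lies over a microRNA cluster lost in some leukemias, 22.5% of 12677 bases. Another domain named for Dleu2, of 23.342 kb, was retained. Morrbid, a noncoding gene known for control of the cell death gene Bcl2l11 in myeloid and T cells, kept 11.1% of 17734 bases, and 5430416N02Rik kept 40.7% of 8434 bases.

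Some split domains were short. The narrowest was 4253 bases, and the SWI/SNF subunit gene Smarcd2 had 2 pieces over 5.149 kb at a DMSO fold enrichment of 7.92. Flna, an actin crosslinker on the X chromosome, had 2 pieces over 6.744 kb and 36.7% coverage.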
